A study of Mus musculus with 22 samples.

Results

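The 38 *Hox* genes described here are the rows of the count table whose Ensembl identifier pairs with a protein-coding mouse symbol made of *Hoxa*, *Hoxb*, *Hoxc* or *Hoxd* and a number, out of 55401 gene identifiers in all. They comprise 11 *Hoxa*, 10 *Hoxb*, 9 *Hoxc* and 8 *Hoxd* genes. The name table pairs 39 such symbols with identifiers, and *Hoxd4* was not analysed here because its listed identifier had no row. The RNA came from mouse embryonic fibroblasts (MEFs), primary cells grown from C57BL/6 embryos whose head and viscera had been removed, so cells of limb, trunk and tail can all contribute to a culture. Early MEFs were at passage 3 and late MEFs at passage 8 of serial culture. The experiment had a pair of sets. One, the S6K1 set, compared late *S6K1* KO (n = 3) with early and late WT (n = 4 each). The other, the S6K1/S6K2 set, had late *S6K1/S6K2* DKO (n = 3), again beside early and late WT (n = 4 each).

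S6K1 and S6K2 are kinases that act downstream of mTOR in growth control. *S6K1* WT and KO MEFs came from littermates, whereas DKO MEFs were paired with WT MEFs of other mothers, bred at earlier stages, so genotype and litter cannot be told apart there. No source used here says which libraries share an embryo, so *P* values measure only the spread between these libraries.

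*Hox* genes encode homeodomain transcription factors that mark position along the head-to-tail axis and along the limb. They lie in 4 clusters, and their order on the chromosome follows their order of use, with low-numbered (anterior) paralogs active toward the head and high-numbered (posterior) paralogs active toward the tail and the tips of the limbs. The high-numbered *Hoxa* and *Hoxd* genes pattern the limb segments, whereas *Hoxb* and most *Hoxc* genes are known mainly for the trunk. Fibroblasts in culture are known to keep much of the *Hox* code of their site of origin.

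The total count per library was 10742454 to 17314832. Levels are given as CPM, the count relative to the library's total after TMM scaling, and levels of different genes are compared as CPM per kilobase of exon (RPKM). A gene was called when the adjusted *P* value of edgeR's quasi-likelihood test, over all genes tested, was below 0.05. *Rps6kb1*, the gene of S6K1, was at 63.7 ± 8.78 CPM (SD, n = 4) in late WT and 20.1 ± 5.15 CPM (SD, n = 3) in late KO MEFs. Late DKO MEFs had 23.6 ± 4.30 CPM of it (SD, n = 3), and the late WT MEFs of their set had 73.5 ± 10.7 CPM (SD, n = 4). *Rps6kb2*, the gene of S6K2, was at 13.1 ± 2.56 CPM (SD, n = 4) in late WT and 0.804 ± 0.484 CPM (SD, n = 3) in late DKO MEFs. All 12 fibroblast markers of the list were detected. Their summed level was 31039 to 38000 CPM in early WT and 20034 to 29505 CPM in late WT MEFs of the S6K1 set. For the S6K1/S6K2 set it was 31578 to 40763 CPM in early WT and 20684 to 28202 CPM in late WT MEFs. It was 25106 to 28165 CPM in KO and 26098 to 29064 CPM in DKO MEFs. Of these 12 markers, 2 were called lower in late than in early WT MEFs of each set. Over all genes tested, 5.97% were called lower in the S6K1 set and 4.89% in the S6K1/S6K2 set. The fit called all 18 tested macrophage markers higher in late than in early WT MEFs of both sets. Over all genes tested, 6.96% were called higher in the S6K1 set and 8.28% in the S6K1/S6K2 set. Of these 18 markers, 16 were called lower in DKO than in late WT MEFs, where 4.78% of all genes were called. Their summed level was 523 to 1180 CPM in early WT and 5614 to 11577 CPM in late WT MEFs of the S6K1 set, and the part of these cells in the *Hox* values was not tested. For the S6K1/S6K2 set this sum was 635 to 2129 CPM in early WT, 7794 to 13410 CPM in late WT and 982 to 3573 CPM in late DKO MEFs. In the KO group it was 3797 to 5105 CPM. The first early WT library of the S6K1 set was flagged for *Hoxa13*, *Hoxb7* and *Hoxc4*, by a rule given at the end. There were 4 flags in 122 checks, where chance gives about 1 in 20. Results without this library are given below.

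Promoter sequence is shown for 3 members that the results below turn on: *Hoxa11*, lower at late passage in both sets, and *Hoxa13* and *Hoxd13*, whose levels moved together across libraries although they lie on different chromosomes. The 250 bases before each start are from RefSeq (GRCm38.p6), which held promoters for 22 of the *Hox* symbols. Capitals mark matches on either strand to a CCAAT box, a GGGCGG box or a TATAAA box, and matches may overlap. *Hoxa11* (chr6:52245811-52246060, minus strand), *Hoxa13* (chr6:52260881-52261130, minus strand) and *Hoxd13* (chr2:74667975-74668224, plus strand) read 5′ to 3′ as follows.
Hoxa11: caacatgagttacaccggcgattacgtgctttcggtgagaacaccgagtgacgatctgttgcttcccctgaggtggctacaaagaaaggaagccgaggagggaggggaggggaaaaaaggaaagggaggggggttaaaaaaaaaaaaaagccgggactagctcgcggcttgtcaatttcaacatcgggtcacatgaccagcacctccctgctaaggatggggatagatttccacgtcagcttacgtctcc
Hoxa13: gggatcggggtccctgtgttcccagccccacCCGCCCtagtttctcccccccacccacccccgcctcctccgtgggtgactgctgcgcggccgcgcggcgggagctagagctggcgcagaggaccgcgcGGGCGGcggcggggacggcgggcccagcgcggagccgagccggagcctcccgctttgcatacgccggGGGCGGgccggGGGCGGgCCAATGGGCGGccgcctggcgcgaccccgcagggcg
Hoxd13: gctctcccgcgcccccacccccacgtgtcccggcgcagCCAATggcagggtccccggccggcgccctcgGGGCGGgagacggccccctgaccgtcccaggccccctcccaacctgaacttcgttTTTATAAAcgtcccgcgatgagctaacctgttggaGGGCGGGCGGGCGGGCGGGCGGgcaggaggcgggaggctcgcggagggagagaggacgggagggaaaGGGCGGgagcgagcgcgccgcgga
Over all 32851 RefSeq promoters of this length, 33.8% held CCAAT, 32.7% held GGGCGG and 12.4% held TATAAA. The *Hoxa13* and *Hoxd13* windows held 35 and 31 CG dinucleotides, and the *Hoxa11* window held 13, against a median of 6 over all promoters. These matches are a description of the letters and say nothing about which factors bind there.

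The MEFs carried RNA of most of the *Hox* code. Of the 38 genes, 32 had enough counts to be tested over all 22 libraries and 31 within each set. *Hoxa6*, *Hoxb1*, *Hoxb13*, *Hoxc12*, *Hoxd1* and *Hoxd3* stayed below the filter within each set and over all 22 libraries and are treated as off, and *Hoxc11* passed over all 22 libraries but in neither set. *Hoxb1*, the hindbrain member, had at most 1 count in any library, and *Hoxb13*, the most posterior member of its cluster, had 0 to 21 counts. Detected members reached *Hoxa13* in the *Hoxa* cluster and spanned *Hoxb* from *Hoxb2* to *Hoxb9*, *Hoxc* from *Hoxc4* to *Hoxc13* and *Hoxd* from *Hoxd8* to *Hoxd13*. At the edges of this range, *Hoxb2* was at 6.44 to 27.4 CPM, *Hoxc4* at 2.03 to 10.5 CPM and *Hoxc13* at 0 to 2.99 CPM.

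**Figure D1:**
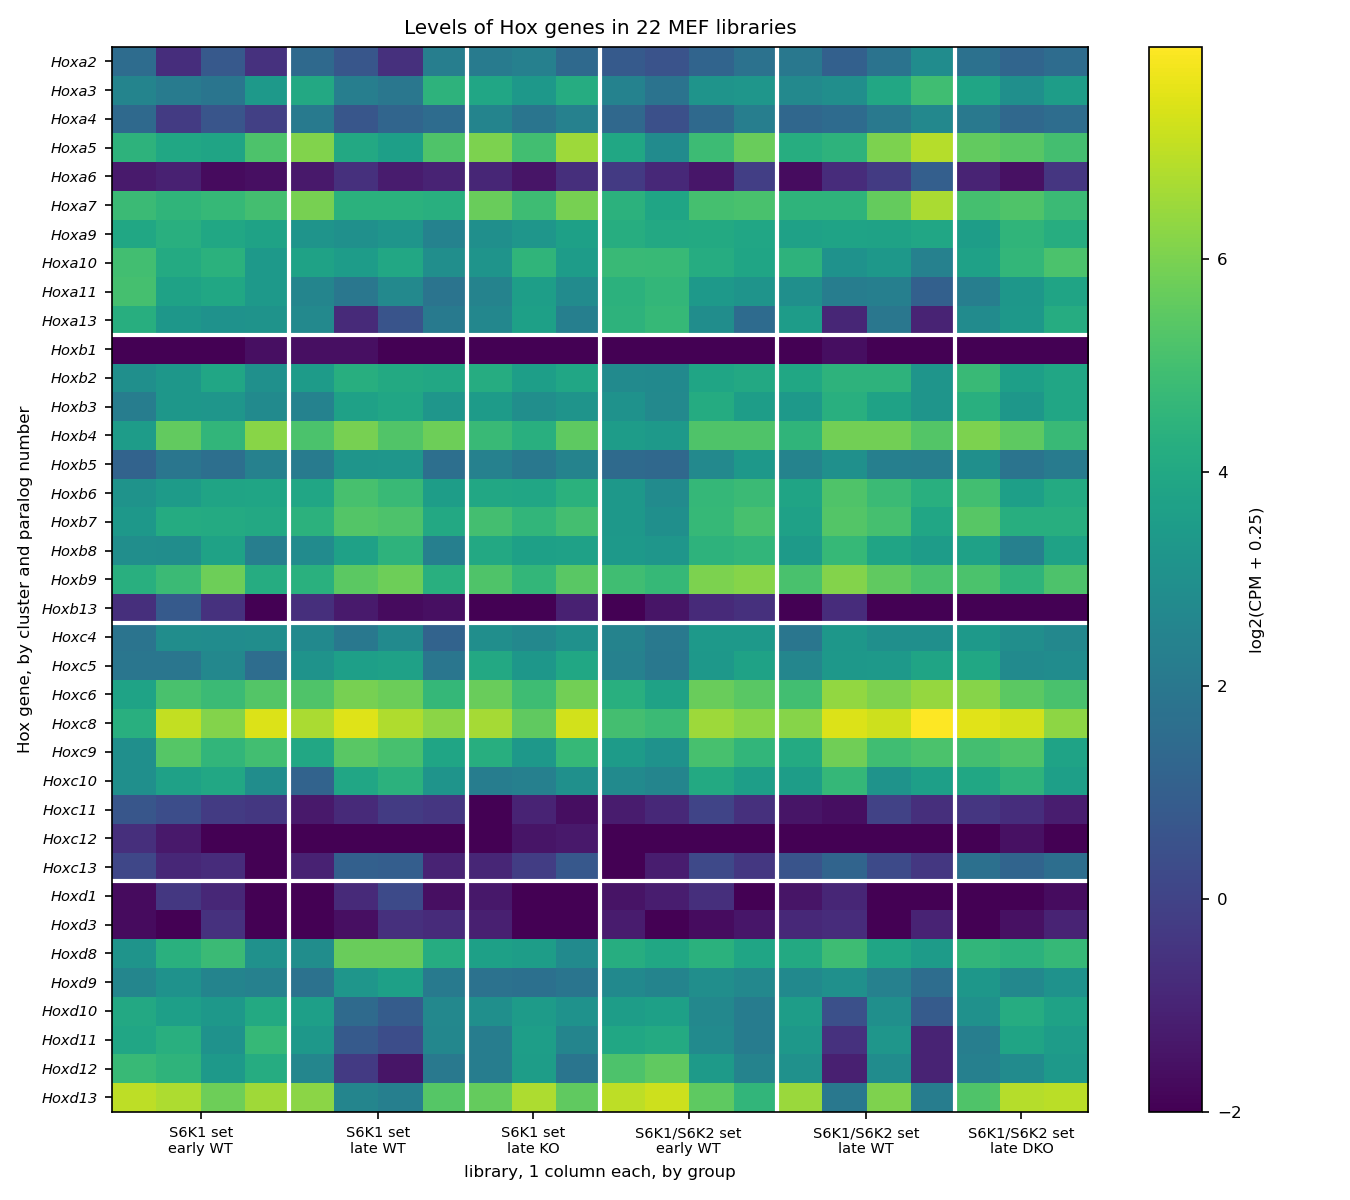
Levels of the *Hox* genes (rows, by cluster and paralog number) in the 22 libraries (columns, by group) as log2(CPM + 0.25). *Hoxc8* and *Hoxd13* are the brightest rows, 6 genes are dark in nearly every library, and *Hoxd10* to *Hoxd13* with *Hoxa13* are dark in the same late WT libraries.

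Per length, *Hoxc8*, a gene of the thoracic region, had the highest mean over the 22 libraries, 49.2 RPKM, and was the top member of its cluster. *Hoxd13*, which patterns digits, followed with 27.7 RPKM and led the *Hoxd* cluster. *Hoxa5*, active at the level of the neck and upper thorax, led the *Hoxa* cluster with 20.8 RPKM, and *Hoxb9* led the *Hoxb* cluster with 14.8 RPKM. The order of these genes was not fixed, since their ranges over libraries overlapped: 8.60 to 110.8 RPKM for *Hoxc8*, 1.504 to 59.8 for *Hoxd13*, 3.63 to 63.2 for *Hoxa5* and 7.06 to 27.8 for *Hoxb9*. Summed over the 38 genes, the level per length was 225 ± 39.9 RPKM (SD, n = 4) in early WT and 224 ± 40.7 RPKM (SD, n = 4) in late WT MEFs of the S6K1 set. In the S6K1/S6K2 set it was 217 ± 29.7 in early WT and 286 ± 63.4 in late WT (SD, n = 4 each).

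Posterior paralogs took a smaller share of this sum in late than in early WT MEFs on average. Paralogs 9 to 13 held 48.9% ± 12.6 (SD, n = 4) of the summed *Hox* RPKM in early WT MEFs of the S6K1 set and 27.0% ± 3.37 (SD, n = 4) in late WT MEFs. The early libraries held 66.1, 47.2, 46.4 and 35.9%, and the late libraries held 29.0, 21.9, 28.3 and 28.6%, so the groups did not overlap. In the S6K1/S6K2 set the share was 51.2% ± 19.8 (SD, n = 4) in early WT and 28.3% ± 13.9 (SD, n = 4) in late WT MEFs. There the early libraries held 63.7, 72.02, 37.7 and 31.2% and the late libraries 46.7, 26.2, 27.4 and 12.96%, and the groups overlapped. Late KO libraries held 25.5, 46.5 and 23.5%, and late DKO libraries held 23.7, 41.1 and 48.1%, within or above the range of the late WT libraries of their sets. Shares are given as a description, without a test, and a rise of one member lowers the share of the others. In a bulk sample, fewer cells of a type and less RNA per cell cannot be told apart.

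**Figure D2:**
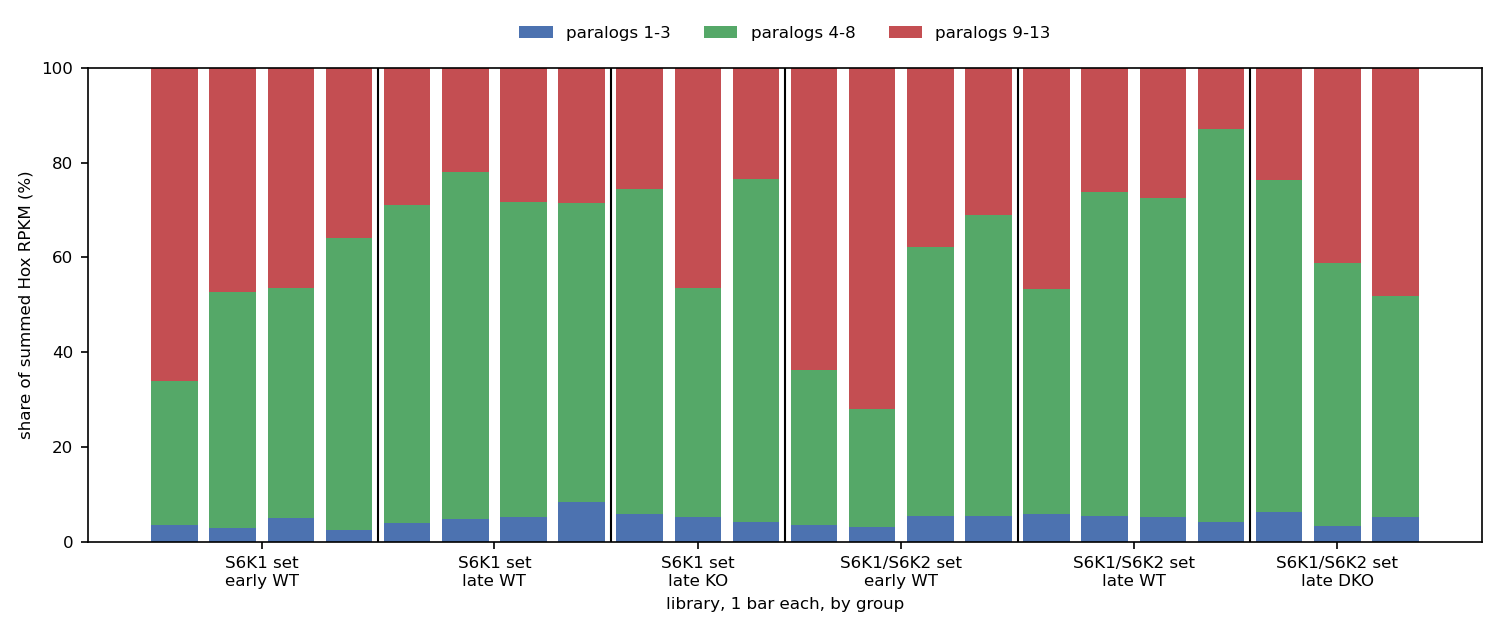
Share of the summed *Hox* RPKM (y axis, percent) held by paralogs 1 to 3, 4 to 8 and 9 to 13 in each library (1 bar each, by group). In the S6K1 set every early WT library lies above every late WT library for paralogs 9 to 13, whereas the S6K1/S6K2 set groups overlap.

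Late passage was compared with early passage in WT MEFs, which serial culture takes toward senescence. In the S6K1 set, 3 of the 31 tested *Hox* genes were called, all lower in late WT MEFs, where 12.9% of all genes tested were called, 5.97% lower and 6.96% higher. These were *Hoxa11*, which patterns the forearm and lower leg, *Hoxa9*, which is active in the lower trunk and upper limb, and *Hoxd12*, a gene of the distal limb. The median log2 fold change over the 31 members was 0.26, against −0.04 over all genes, and 22 of them were positive.

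*Hoxa11* (ENSMUSG00000038210.10, chr6:52242105-52245810) was at 32.9, 13.3, 15.1 and 10.3 CPM in the early WT libraries and 5.60, 3.67, 6.26 and 3.30 CPM in the late WT libraries of the S6K1 set. Every late library was below every early library. The log2 fold change was −1.92 ± 0.38 (SE), 3.78-fold lower, with an adjusted *P* value of 0.00654 by edgeR.

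*Hoxa9* (ENSMUSG00000038227.15, chr6:52223097-52227370) was at 15.2, 19.7, 15.1 and 13.1 CPM in early WT and 8.71, 7.82, 8.99 and 5.08 CPM in late WT MEFs of that set. This gene varied little within groups, and the groups did not overlap. The log2 fold change was −1.05 ± 0.23 (SE), 2.07-fold lower, with an adjusted *P* value of 0.0107 by edgeR.

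*Hoxd12* (ENSMUSG00000001823.5, chr2:74675013-74677705) was at 26.4, 22.1, 10.4 and 18.2 CPM in early WT and 5.68, 0.558, 0.116 and 3.89 CPM in late WT MEFs. The groups did not overlap, but the late libraries spanned a wide range, and 1 of them had only 2 counts. The log2 fold change was −2.93 ± 0.77 (SE), with an adjusted *P* value of 0.0266 by edgeR. *Hoxa13*, a gene of the hands and feet, was the other member whose groups did not overlap, so that 4 of 31 members were apart in CPM against 18.2% of all genes tested. Its early WT libraries were at 18.9, 9.51, 8.36 and 8.57 CPM and its late WT libraries at 6.22, 0.319, 1.276 and 4.06 CPM, with a log2 fold change of −1.94 ± 0.63 (SE) and an adjusted *P* value of 0.0646 by edgeR.

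All 7 tested members among paralogs 10 to 13 of *Hoxa* and *Hoxd* had negative log2 fold changes in the S6K1 set, from −2.93 to −0.73. Over paralogs 9 to 13 of all clusters, 8 of the 13 tested members were negative and 5 positive. Among the positive members *Hoxc13*, a gene also known from hair and nails, had the largest value of the 31, 1.39 ± 0.86 (SE), and did not pass, with an adjusted *P* value of 0.322 by edgeR. *Hoxd13* did not pass, with a log2 fold change of −1.60 ± 0.72 (SE) and an adjusted *P* value of 0.172 by edgeR. Its early WT libraries were at 127, 108, 55.4 and 94.2 CPM and its late WT libraries at 75.9, 5.66, 4.76 and 40.6 CPM. Among the late libraries, 2 were far below the others and 1 lay inside the early range. By contrast, all 8 tested *Hoxb* members had positive values, from 0.19 to 0.91, and none passed, the smallest adjusted *P* value being 0.0578 for *Hoxb7* by edgeR. *Hoxc5* had a log2 fold change of 1.20 ± 0.37 (SE), with an adjusted *P* value of 0.0536.

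The number called depended on single libraries. Without the first late WT library 7 members were called, all lower (*Hoxa9*, *Hoxa11*, *Hoxa13* and *Hoxd10* to *Hoxd13*). Without the fourth late WT library 6 were called, *Hoxa9*, *Hoxa11* and *Hoxd12* as lower and *Hoxb6*, *Hoxb7* and *Hoxc5* as higher. Without the third early WT library 5 were called, the same 3 as lower and *Hoxb2* and *Hoxc5* as higher. Without the first early WT library *Hoxa9*, *Hoxa11* and *Hoxa4* were called, *Hoxa4* as higher. In the order given, these fits called 1388 of 14044, 1632 of 14037, 1641 of 14017 and 1749 of 14030 genes tested. The fit with every library called 1827 of 14132. *Hoxa9* and *Hoxa11* were called in all 8 fits that left out 1 library, and *Hoxd12* was not called in 3 of them: without the first or second early or the second late WT library.

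In the S6K1/S6K2 set, 2 of the 31 tested *Hox* genes were called, where 13.2% of all genes tested were called. *Hoxa11* was lower and *Hoxc8* was higher in late than in early WT MEFs, where 4.89% of all genes were called lower and 8.28% higher. *Hoxa11* was at 21.4, 24.2, 10.4 and 8.78 CPM in early WT and 7.71, 4.43, 4.78 and 1.85 CPM in late WT MEFs. It was the only member of the 31 whose groups did not overlap, against 20.5% of all genes tested. The log2 fold change was −1.74 ± 0.48 (SE), 3.34-fold lower, with an adjusted *P* value of 0.0353 by edgeR.

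*Hoxc8* (ENSMUSG00000001657.7, chr15:102990539-102994275) was at 32.0, 27.5, 91.0 and 74.6 CPM in early WT and 72.5, 177, 151 and 255 CPM in late WT MEFs of this set. The groups overlapped, and the first and second early libraries were far below the other early libraries. The log2 fold change was 1.59 ± 0.48 (SE), 3.01-fold higher, with an adjusted *P* value of 0.0497 by edgeR, just under the threshold. In the S6K1 set the same comparison of *Hoxc8* gave 0.21 ± 0.55 (SE), with early WT libraries at 19.8, 135, 71.0 and 178 CPM and late WT libraries at 106, 181, 111 and 75.9 CPM.

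Over paralogs 9 to 13 in this set, 9 of the 13 tested members had negative values and 4 positive. *Hoxc13* again had the largest value, 1.61 ± 0.72 (SE), and did not pass, with an adjusted *P* value of 0.150 by edgeR. *Hoxd13* was at 129, 148, 45.9 and 23.8 CPM in early WT and 90.6, 3.74, 66.9 and 4.46 CPM in late WT MEFs, with a log2 fold change of −1.02 and a 95% interval of −3.14 to 1.10. *Hoxd12* had −2.64 ± 0.97 (SE) and an adjusted *P* value of 0.0951 by edgeR. *Hoxa9*, called in the S6K1 set, had −0.24 ± 0.18 (SE) here, with 14.8 to 18.4 CPM in early WT and 12.8 to 14.8 CPM in late WT MEFs.

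Neither call of this set held in all 8 fits that left out 1 library. In these fits the log2 fold change was −2.10 to −1.49 for *Hoxa11* and 1.29 to 1.92 for *Hoxc8*. No member was called without the first or second early WT library or without the second, the third or the fourth late WT library. Without the fourth early WT library only *Hoxa11* was called, and without the first late WT library 4 were called (*Hoxa10*, *Hoxa11*, *Hoxa13* and *Hoxc8*).

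**Figure D3:**
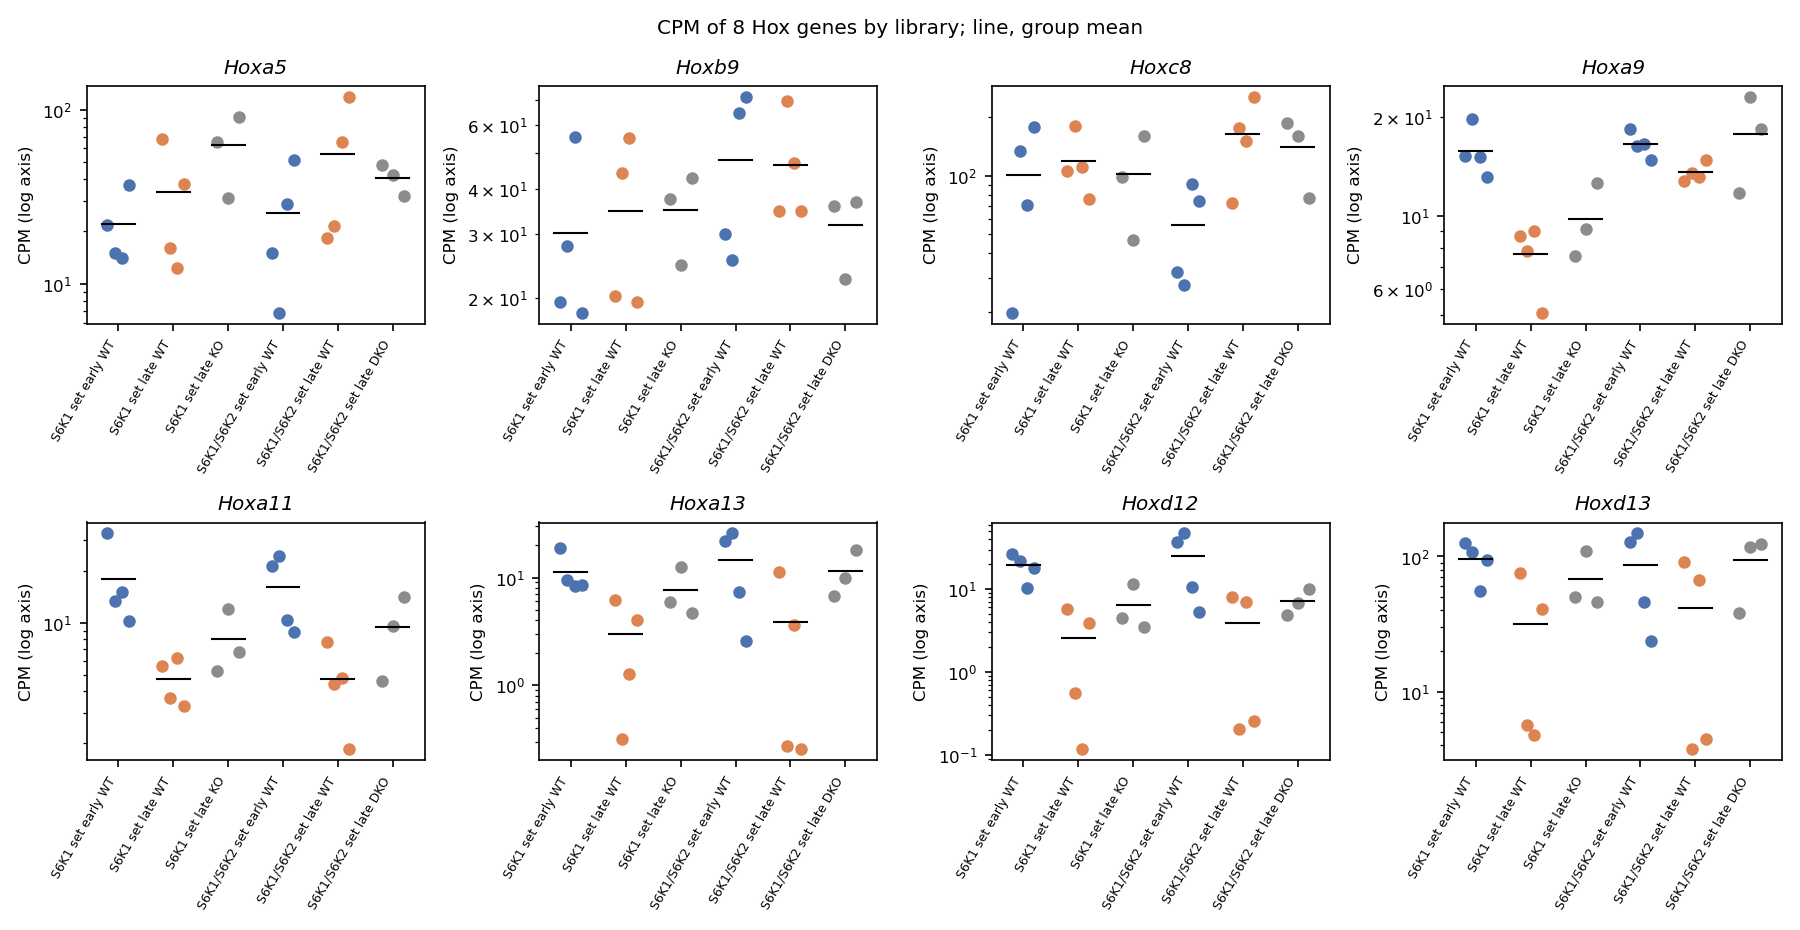
CPM (log axis) of 8 *Hox* genes in each library (points) by group, with the group mean as a line. *Hoxa11* is lower in every late WT library than in any early WT library of its set, whereas 2 late WT libraries of each set have 3.74 to 5.66 CPM of *Hoxd13* and the other libraries 23.8 CPM or more.

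The effect of passage was compared directly between the sets by an interaction term over all 22 libraries. None of the 32 tested *Hox* genes was called by edgeR, 1 had an unadjusted *P* value below 0.05 and DESeq2 called 0, where 0.712% of all genes tested were called. The difference in log2 fold change was 0.78 for *Hoxa9* (95% interval 0.17 to 1.39, adjusted *P* = 0.350 by edgeR), 1.34 for *Hoxc8* (−0.27 to 2.95) and 0.15 for *Hoxa11* (−1.16 to 1.46). A passage effect that passed in 1 set and not in the other was therefore not shown to differ between them.

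**Figure D4:**
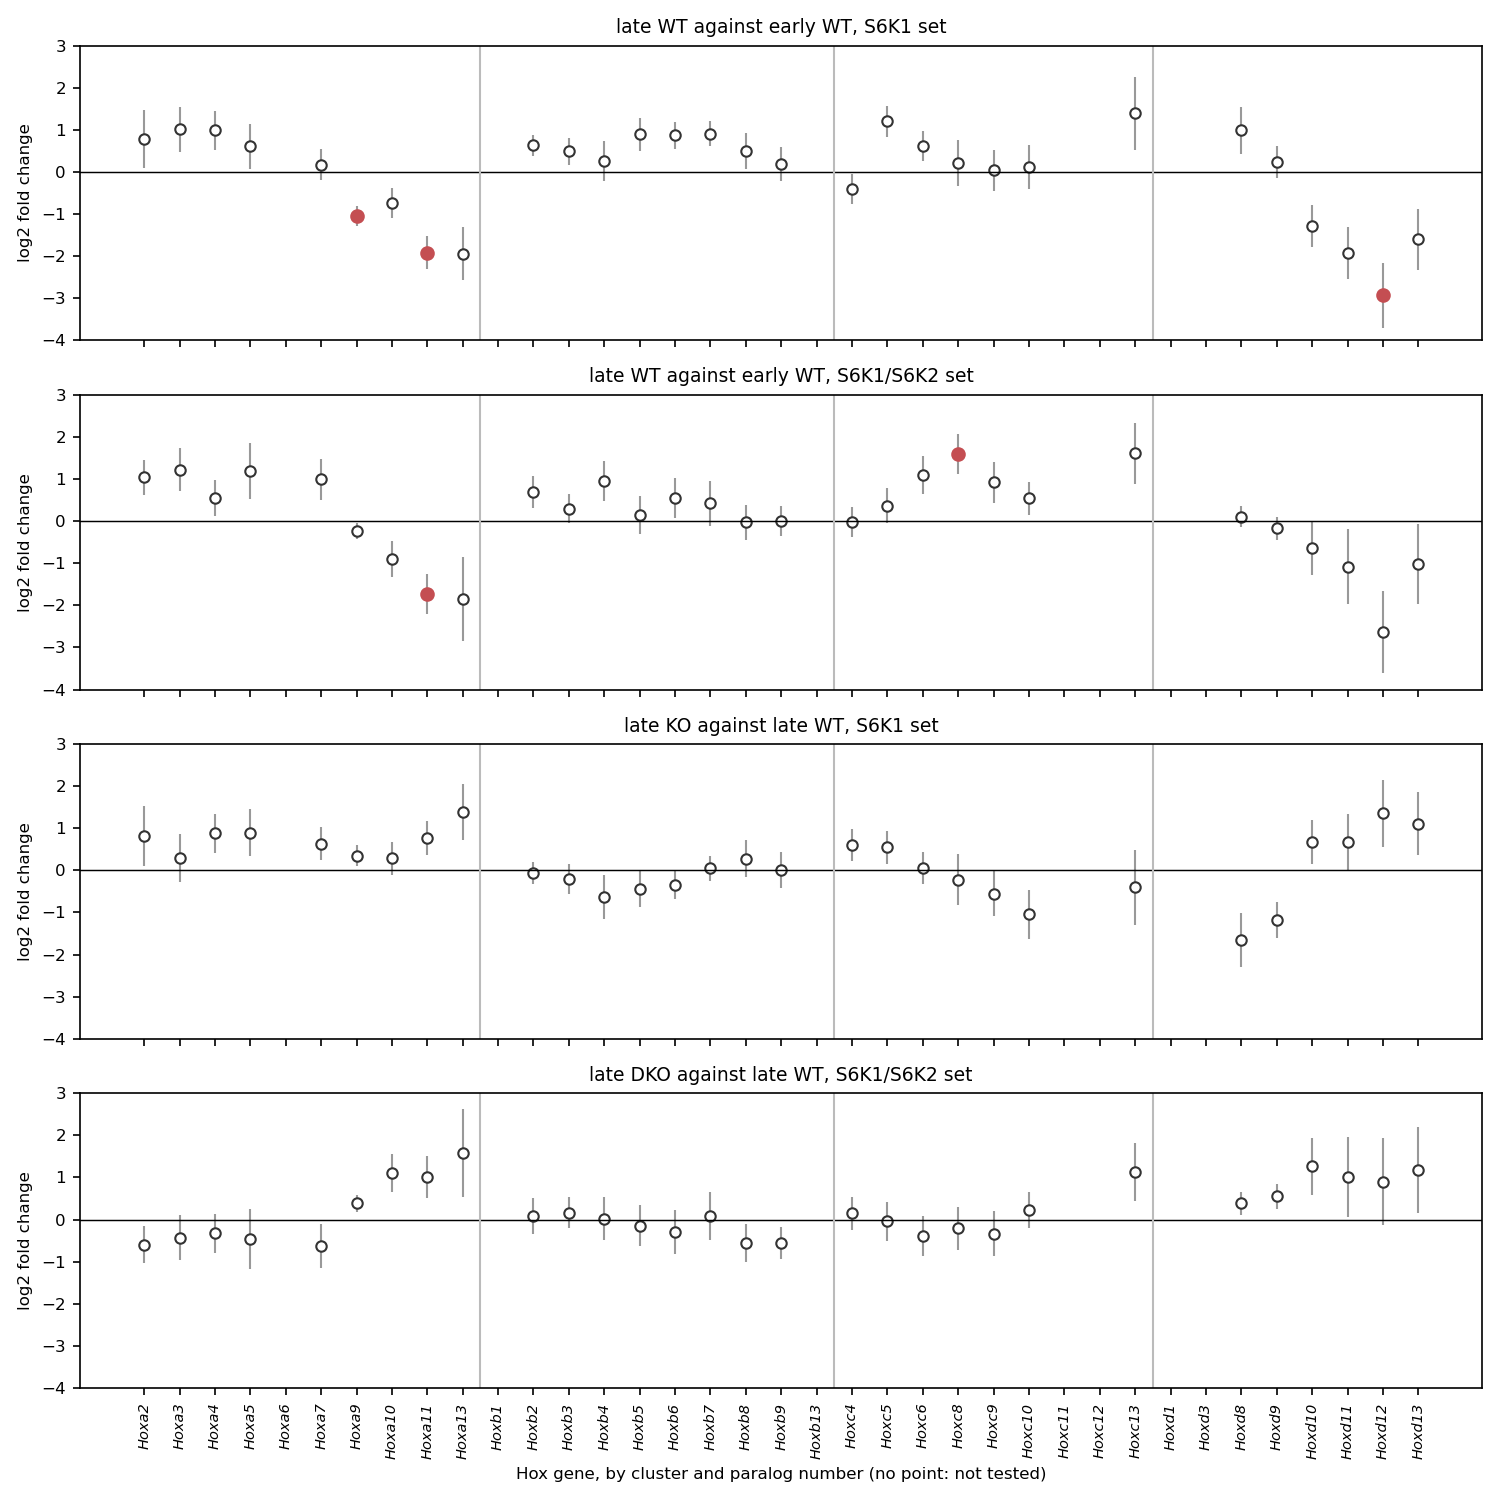
Log2 fold change of tested *Hox* genes (points, by cluster and paralog number) with its SE (bars) in the passage comparisons and the genotype comparisons of both sets, with called genes filled in red. Called points are *Hoxa9*, *Hoxa11* and *Hoxd12* in the S6K1 set and *Hoxa11* and *Hoxc8* in the S6K1/S6K2 set, for late against early WT MEFs.

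Late KO and DKO MEFs were compared with late WT MEFs to read the effect of losing the S6 kinases at late passage. In the S6K1 set, edgeR called 0 of the 31 tested members in late KO MEFs, 2 had an unadjusted *P* value below 0.05 and DESeq2 called 0, where 0.0425% of all genes tested were called. No member had groups that did not overlap, against 13.1% of all genes. The 2 members were *Hoxd9* and *Hoxd8*, neighbours in the middle of the *Hoxd* cluster. *Hoxd8* was at 12.5, 11.6 and 6.65 CPM in late KO and 7.16, 52.4, 52.1 and 17.9 CPM in late WT MEFs, so the KO libraries lay within or just below the WT range. Its log2 fold change was −1.66 (95% interval −3.05 to −0.28, adjusted *P* = 0.382 by edgeR). *Hoxd9* was at 3.17, 2.97 and 3.40 CPM in late KO and 3.19, 9.17, 12.5 and 3.98 CPM in late WT MEFs, with −1.18 (−2.11 to −0.26) and an adjusted *P* value of 0.355 by edgeR.

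In late DKO MEFs, edgeR called 0 of the 31 tested members, 1 had an unadjusted *P* value below 0.05 and DESeq2 called 0, where 4.78% of all genes tested were called. The groups overlapped for every tested member, against 16.2% of all genes whose groups did not. *Hoxa10*, which acts in the lumbar region and the upper limb segment, was at 12.96, 24.0 and 35.4 CPM in late DKO and 21.7, 8.30, 9.71 and 5.03 CPM in late WT MEFs. Its log2 fold change was 1.11 (95% interval 0.11 to 2.11, adjusted *P* = 0.217 by edgeR). It was called when the first late WT library was left out, and *Hoxa9* was called when the first DKO library was left out.

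The intervals of these comparisons were wide. For *Hoxa11* the log2 fold change was 0.77 (95% interval −0.12 to 1.65) in KO and 1.01 (−0.10 to 2.12) in DKO MEFs, and for *Hoxd13* it was 1.11 (−0.54 to 2.75) and 1.18 (−1.08 to 3.44). The 7 tested members among paralogs 10 to 13 of *Hoxa* and *Hoxd* were all positive, from 0.28 to 1.39 in KO and from 0.90 to 1.59 in DKO MEFs. None of these passed, and the comparisons share their late WT libraries with the passage comparisons, in which the same 7 members were negative. *Hoxc8* had −0.22 (−1.52 to 1.09) in KO and −0.21 (−1.32 to 0.89) in DKO MEFs. A difference between the DKO and KO effects was called for 0 of 32 members by edgeR, with 2 at an unadjusted *P* value below 0.05 and 0 called by DESeq2, where 0.00672% of all genes tested were called. Those were *Hoxd9*, with a difference of 1.75 (95% interval 0.63 to 2.86, adjusted *P* = 0.302 by edgeR), and *Hoxd8*, with 2.06 (0.55 to 3.56, adjusted *P* = 0.331).

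WT MEFs of the sets were also compared with each other, since they are of the same genotype. At early passage edgeR called 0 of 32 members, 3 had an unadjusted *P* value below 0.05 and DESeq2 called 0, where 0.840% of all genes tested were called. The groups of every member overlapped, and 8.41% of all genes had groups that did not. *Hoxa4* was called when the first early WT library of the S6K1 set was left out. At late passage edgeR called 0 of 32 members, where 1.19% of all genes were called, 1 had an unadjusted *P* value below 0.05 and DESeq2 called 1. This was *Hoxa9*, with a log2 fold change of 0.83 ± 0.21 (SE) in the S6K1/S6K2 set against the S6K1 set and an adjusted *P* value of 0.0524 by edgeR. It was the only member whose late WT groups did not overlap, against 8.30% of all genes tested.

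*Hox* genes varied more between libraries of a group than most genes did. The median biological coefficient of variation of the 31 tested members was 0.413 in the S6K1 set and 0.440 in the S6K1/S6K2 set, and over all genes it was 0.239 and 0.208. Over the 22 libraries, *Hoxd11* ranged from 0.255 to 25.7 CPM, *Hoxa13* from 0.255 to 25.7 CPM and *Hoxd13* from 3.74 to 148 CPM. *Hoxb9*, *Hoxb2* and *Hoxb3* had some of the narrowest spans, with highest-to-lowest ratios of 3.93, 4.255 and 4.38.

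This variation was shared between genes. Correlations were taken over the 22 libraries as deviations of log2 CPM from the group means, so differences between groups do not enter, and they are a description of points that share libraries and depth. *Hoxd10* to *Hoxd13* followed each other with a Pearson r of 0.95 to 0.98. *Hoxa13* followed them with 0.88 to 0.94, although *Hoxa* lies on chromosome 6 and *Hoxd* on chromosome 2. The same late WT libraries were lowest for each of these genes, the second and the third of the S6K1 set and the second and the fourth of the S6K1/S6K2 set. In them *Hoxa13* was at 0.319, 1.276, 0.277 and 0.255 CPM.

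Trunk members were taken as another block. *Hoxb2* to *Hoxb9* and *Hoxc4* to *Hoxc9* had a median r of 0.73 among their 78 pairs, from 0.17 to 0.96 for *Hoxb6* and *Hoxb7*. The edges of this block were not sharp. *Hoxc10* and *Hoxd8*, which are outside it, had an r of 0.73 and 0.74 with *Hoxb3* and of −0.71 and −0.51 with *Hoxd13*. With *Hoxb4* they had only 0.38 and 0.07. Against *Hoxd10* to *Hoxd13* and *Hoxa13*, this block had a median r of −0.59, and all 65 pairs were negative (−0.78 to −0.23). *Hoxc8* and *Hoxa11*, the members called in the S6K1/S6K2 set, had an r of −0.81.

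The *Hoxa* and *Hoxd* clusters did not vary as units. Within *Hoxa*, *Hoxa2* to *Hoxa7* had a median r of 0.67 and *Hoxa10* with *Hoxa11* had 0.94, but the former against the latter had a median of −0.50. Within *Hoxd*, *Hoxd8* and *Hoxd9* had an r of 0.77, whereas against *Hoxd10* to *Hoxd13* they had a median of −0.44. *Hoxa9*, at the border between the *Hoxa* blocks, correlated with no member beyond −0.45 to 0.33. Pairs of the same cluster had a median r of 0.48 (116 pairs) and pairs of different clusters −0.01 (380 pairs).

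**Figure D5:**
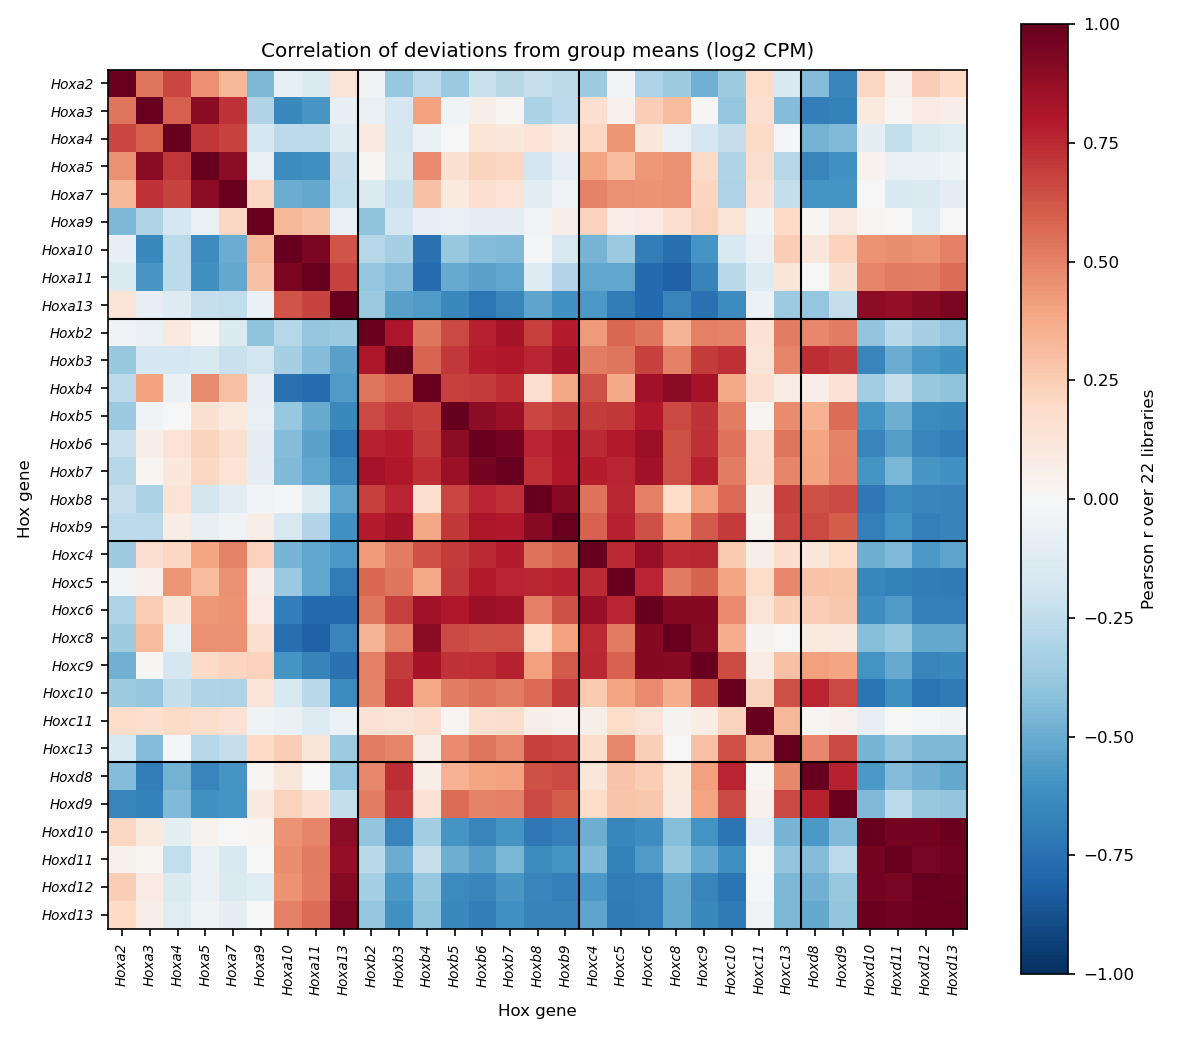
Pearson r over 22 libraries between tested *Hox* genes (both axes, by cluster), from deviations of log2 CPM from group means. *Hoxd10* to *Hoxd13* and *Hoxa13* are red with each other (0.88 to 0.98) and blue with the *Hoxb* and *Hoxc* genes of the trunk (median −0.59).

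The genes whose deviations were most like the mean of the tested *Hoxd* members were led by *Osr1*, a zinc-finger gene of limb and kidney mesenchyme, with an r of 0.98 over 22 libraries and a range of 7.06 to 68.5 CPM. It was followed by a gene without a symbol, *Cadm2*, *Itgb8* and *Tcfap2b*, each at 0.97. Genes close to the *Hoxa* mean were *Nipal1* and *Ppap2a* (0.88 each), *Angpt4* and *Diras2* (0.85 each). The *Hoxa* and *Hoxd* means each average blocks that varied against each other (median r −0.50 and −0.44). All genes named here were picked for the highest r among the genes tested over 22 libraries, so their r values are high by selection. *Ctla2a* (0.93) and *Gpx3* (0.92) were closest to the *Hoxb* mean, ahead of *Snap91*, *Prokr2* and *Siglecg*. *Gpx3* (0.93) was also closest to the *Hoxc* mean, ahead of *Nnmt*, *F2r*, *Ctla2a* and *Rras2*. The *Hoxb* cluster lies 9.65 to 9.82 Mb from *Rps6kb1* on chromosome 11. Of the 8 tested *Hoxb* members 0 were called in KO or DKO MEFs, where 0.0425% and 4.78% of all genes were called. The smallest adjusted *P* values of these members by edgeR were 0.720 and 0.5005.

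Genes that work with or upstream of HOX proteins were counted in the same fits, beside the 12.9% and 13.2% of all genes called with passage. Of 9 TALE cofactors, homeodomain proteins that bind DNA with HOX proteins, 1 was called in the S6K1 set and 0 in the S6K1/S6K2 set. This was *Pknox2*, at 6.25 ± 1.41 CPM in early WT and 1.83 ± 0.472 CPM in late WT MEFs (SD, n = 4 each), with a log2 fold change of −1.78 and an adjusted *P* value of 0.00276 by edgeR.

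Polycomb and Trithorax regulators keep *Hox* clusters silent or active. Of the 23 genes of this list 21 were tested, and the Trithorax members *Kmt2a* and *Kmt2d* were not, as no row matched their symbols. With passage, 5 of the 21 were called in the S6K1 set, 2 higher and 3 lower, and 1 in the S6K1/S6K2 set. *Cbx8*, a Polycomb subunit, was higher in late WT MEFs of the S6K1 set (log2 fold change 0.69). *Kdm6b*, which removes the Polycomb histone mark, was lower (−1.16), as were *Pcgf2* (−0.60) and *Ctcf* (−0.73), which sets domain borders. *Ctcf* was at 64.9 ± 16.9 CPM in early WT and 39.5 ± 6.38 CPM in late WT MEFs of that set (SD, n = 4 each). Early WT MEFs of the S6K1/S6K2 set were already at 38.0 ± 7.23 CPM (SD, n = 4). *Bmi1* was higher in the S6K1/S6K2 set, at 41.1 ± 3.10 CPM in early WT and 57.1 ± 2.86 CPM in late WT MEFs (SD, n = 4 each). In KO MEFs 0 of the 21 were called, where only 0.0425% of all genes were. In DKO MEFs 1 was called, where 4.78% of all genes were. This was *Ezh2*, the Polycomb methyltransferase, lower in DKO MEFs at 13.2 ± 1.46 CPM (SD, n = 3). Late WT MEFs of that set had 22.9 ± 5.56 CPM (SD, n = 4). Between the early WT groups of the sets, 2 of the 21 were called, *Ctcf* and *Ezh2*, where 0.840% of all genes were. *Ezh2* was at 33.7 ± 5.24 CPM in the S6K1/S6K2 set and 70.9 ± 28.0 CPM in the S6K1 set (SD, n = 4 each).

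Retinoic acid is a known inducer of *Hox* genes. Of 13 tested genes of its pathway and other upstream regulators, 5 were called with passage in the S6K1 set (1 higher, 4 lower). In the S6K1/S6K2 set 3 were called, all lower. Over all genes, 6.96% were called higher and 5.97% lower in the S6K1 set, and 4.89% lower in the S6K1/S6K2 set. *Crabp2*, which carries retinoic acid to the nucleus, was called lower in both sets. It was at 224 ± 66.2 CPM in early WT and 35.9 ± 23.2 CPM in late WT MEFs of the S6K1 set, and at 200 ± 58.4 and 55.1 ± 33.2 CPM in the S6K1/S6K2 set (SD, n = 4 each). The receptor genes *Rara* (log2 fold change −0.64) and *Rarb* (−1.60) were lower in the S6K1 set, and *Rarg* (−0.87) and *Cyp26b1* (−1.45), which degrades retinoic acid, in the S6K1/S6K2 set. *Aldh1a1*, which makes retinoic acid, was higher in the S6K1 set (1.46). In KO MEFs 0 of the 13 were called, where only 0.0425% of all genes were. In DKO MEFs 1 was called, where 4.78% of all genes were. This was *Rdh10*, an early enzyme of retinoic acid synthesis, higher in DKO MEFs at 87.8 ± 32.3 CPM (SD, n = 3). Late WT MEFs of that set had 29.3 ± 14.0 CPM (SD, n = 4).

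Other transcription factors of limb and trunk position were also read. In the S6K1 set 6 of 32 tested were called, all lower in late WT MEFs, where 5.97% of all genes were called lower. The list median was −0.45 against −0.04 over all genes. *Lhx9*, a limb bud gene, was at 54.3 ± 16.0 CPM in early WT and 14.9 ± 5.90 CPM in late WT MEFs (SD, n = 4 each), and *Lmx1b*, which marks the dorsal limb, had a log2 fold change of −1.51. *Tbx18* (−1.17) and *Twist1* (−0.83) were lower as well. In the S6K1/S6K2 set 2 of 31 were called, *Pax3* and *Alx4*, both higher, where 8.28% of all genes were called higher. The median of the list there was −0.43 against 0.01 over all genes. *Pax3*, a gene of somites and neural crest, was at 0.379 ± 0.247 CPM in early WT and 3.22 ± 1.65 CPM in late WT MEFs (SD, n = 4 each).

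Of 20 noncoding genes inside the clusters, 9 were tested in each set and 2 were called with passage in the S6K1 set. *Hoxa11as*, which overlaps *Hoxa11* on the opposite strand, was at 11.3 ± 3.71 CPM in early WT and 3.25 ± 2.695 CPM in late WT MEFs (SD, n = 4 each), with a log2 fold change of −1.81 and an adjusted *P* value of 0.0377 by edgeR. The strand setting of the counting was not given in the sources used here, so reads of *Hoxa11* and its antisense gene may not be fully separate. *Gm15050*, in the anterior *Hoxa* cluster, was higher (1.00, adjusted *P* = 0.00970 by edgeR). No gene of this list was called in the S6K1/S6K2 set.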

How the data were processed

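RNA-seq was analysed in 22 libraries of serially passaged MEFs, grouped by their labels. The deposited values are raw counts per gene, without normalization. Per the labels' processing notes, the submitters used CASAVA, STAR 2.7.1a, DESeq2 1.28.1 and mm10, whereas the study's methods name TopHat, HTSeq and an earlier build. Of the 55401 identifiers, 22812 were absent from the GENCODE annotation of the earlier build, so symbols came from a name table and positions from RefSeq (GRCm38.p6) by symbol. Exon lengths came from GENCODE vM1. The strand setting was not given in the sources used here.

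In R 4.3.3, edgeR 4.0.16 was run on the counts with filterByExpr, TMM scaling and the robust quasi-likelihood F test. The 3 groups of a set were fitted together (14132 and 14365 genes), and comparisons between sets used all 22 libraries (14886 genes), with Benjamini-Hochberg adjustment and a threshold of 0.05. Intervals are 95% intervals from the fit. Correlations used log2 CPM with a prior count of 2. The authors' own tests were not used. Scripts were tested on simulated data. Alternatives were DESeq2 1.42.0, RLE scaling, no filter, fits on the groups compared or all 6 groups, a Y-linked covariate and leaving out each library.

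Every called *Hox* gene is named in the text with, per cluster, the highest member per length and the outermost detected members. In the other lists at most 4 called genes are named per comparison, and up to 5 genes most like each cluster mean. Some genes that this rule names are not reported here, though they stay in the counts. The members and lists were chosen with earlier results of these data known. Counts differed beyond sampling noise in each of the 30 within-group pairs (chi-square divided by its degrees of freedom at least 20.6). No pair was therefore the same library counted again, but this cannot tell whether libraries share an embryo. Each library was used as a replicate. Of the Polycomb and Trithorax list, *Kmt2a* and *Kmt2d* were not matched by symbol.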

Additional observations from a re-analysis of the deposited data

Results flagged for a closer look

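A library was singled out when its gap to the nearest library of its group, divided by the group's range, exceeded Dixon's 95% critical value for 4 libraries, and chance gives about 1 in 20 groups. Among 122 checks, 4 did. *Hoxa7* was at 61.9 CPM in the first late WT library of the S6K1 set, above 19.6 to 20.7 CPM in the others. The remaining 3 were in the first early WT library of that set. There *Hoxa13* was highest at 18.9 CPM, while *Hoxb7* (9.72 CPM) and *Hoxc4* (3.31 CPM) were lowest. This library also had the highest *Hoxa11* (32.9 CPM) and the lowest *Hoxc8* (19.8 CPM) of its group.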

How the results depend on the processing

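For late against early WT MEFs of the S6K1 set, 3 *Hox* genes were called, all lower, and the same genes with RLE scaling, on the groups compared and over all 6 groups. Without a filter *Hoxa9* and *Hoxa11* were called as lower and *Hoxc5* as higher. DESeq2 called 8 (5 lower, with *Hoxb6*, *Hoxb7* and *Hoxc5* higher), where it called 2655 of all 14132 genes tested. A Y-linked covariate gave 7 (5 lower, with *Hoxb7* and *Hoxc5* higher), where 3265 of 14132 genes were called. The main fit called 1827 of 14132 genes, so these alternatives called more genes in general. Leaving out 1 library gave 2 to 7. In the S6K1/S6K2 set, 2 were called, 3 with DESeq2, 1 with RLE scaling, 1 with the Y-linked covariate, 1 on the groups compared, 1 over all 6 groups and 0 without a filter (5 at an unadjusted *P* value below 0.05), and leaving out 1 library gave 0 to 4. *Hoxa9* and *Hoxa11* stayed called in the S6K1 set under every alternative run, with fold changes of −1.12 to −0.90 and −2.10 to −1.44 when 1 library was left out. *Hoxd12* had an adjusted *P* value of 0.130 without a filter. *Hoxc8* kept its call with DESeq2 (adjusted *P* 0.00329) and lost it under the other 5 alternatives (0.0503 to 0.161), with log2 fold changes of 1.56 to 1.60, and *Hoxa11* in the S6K1/S6K2 set lost it without a filter (0.116). The cause was not tested. The other comparisons called 0 under all alternatives, except 1 with DESeq2 between late WT sets. Leaving out 1 library gave 0 to 1 for DKO and for early WT between sets, and 0 to 0 for KO, for late WT between sets and for both interactions. Over all genes, KO against WT called 6 with edgeR and 261 with DESeq2.

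The share of paralogs 9 to 13 in late WT MEFs of the S6K1 set was 34.7% without *Hoxc8*, against 27.0% with it. *Hoxc8* is not among these paralogs, so leaving it out raises their share in every library, early or late. The value of 34.7% is therefore not comparable with the early WT share that includes *Hoxc8*. Leaving out 1 library gave shares of 43.2 to 53.3, 26.3 to 28.6 and 24.5 to 36.0% for early WT, late WT and KO of the S6K1 set, and of 44.2 to 57.8, 22.2 to 33.4 and 32.4 to 44.6% for early WT, late WT and DKO of the other.

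No paired analysis was possible because the labels give each library its own code and no replicate number shared between groups. Where 1 library was left out of a group, the spread was pooled over the groups fitted. Summed Y-linked levels were 0 to 322.7 CPM over all libraries. They were 209.9 to 292.2 CPM in the KO group, where late WT MEFs had a median of 0.235 CPM (0 to 248.0). Late DKO MEFs had a median of 0.124 CPM (0 to 296.8), and late WT MEFs of that set 256.8 CPM (0.0636 to 322.7). The part of the Y-linked differences in the genotype values was not tested beyond the covariate. With 3 or 4 libraries per group and the spread of these genes, smaller differences were not detectable.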
